A study of Sus scrofa with 70 samples.

Results

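The acid and bicarbonate transport genes of the boar reproductive tract were taken as every gene of the deposited annotation whose name begins with ATP6V, ATP6AP, SLC4A, SLC9A or SLC26A, together with the carbonic anhydrases (CA followed by a number). The rule found 68 of 35552 genes, namely 22 genes of the proton pump, 11 named SLC4A, 11 named SLC9A, 10 named SLC26A and 14 carbonic anhydrases. The boars were 12 months old and belonged to the Banna mini-pig inbred line (BMI) or to the Diannan small-ear pig (DSE), and the glands were the testis, the epididymis and 3 accessory glands (vesicular, prostate and bulbourethral). Each breed and gland had 3 libraries of short-read RNA-seq (30 in all) and 1 library of long-read Iso-seq (10 in all), which reads whole transcripts. No animal was treated, and the glands were whole tissue, so that fewer cells of a type and less RNA per cell cannot be told apart.

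Sperm leave the testis immotile, are kept quiescent in an acidic, bicarbonate-poor fluid in the epididymis, and meet bicarbonate from the accessory glands at ejaculation. The vacuolar proton pump (V-ATPase) acidifies vesicles in every cell and, in specialised epithelial cells that carry particular subunit forms, pumps protons across the luminal membrane. Carbonic anhydrases interconvert carbon dioxide and bicarbonate, SLC4 proteins carry bicarbonate, most SLC9 proteins exchange sodium for protons, and SLC26 proteins exchange anions such as chloride, bicarbonate and sulfate. The name rule also took in genes that are not transporters, such as SLC4A1AP, and the scaffold proteins SLC9A3R1 (NHERF1) and SLC9A3R2 (NHERF2), which anchor SLC9A3 and other membrane proteins.

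Expression was given as TPM, a level per transcript length scaled to a fixed total, summed over the transcripts of a gene. Of the members, 60 reached 1 TPM in at least 3 libraries and were tested among 19796 such genes. CA1, CA7, SLC26A1, SLC26A4, SLC26A5, SLC26A9, SLC4A1 and SLC9A4 did not reach it, with the highest single-library levels 11.3 TPM for SLC26A4 and 4.09 TPM for CA7. A gland was compared with the mean of the other 4 glands by limma on log2(TPM + 1), and a call needed a log2 difference of at least 1 and, after Benjamini-Hochberg adjustment over all genes tested, a p below 0.05. A log2 difference on this scale understates the change of genes with low TPM. Nothing in the labels names the animal of a library, so p-values measure the spread between these samples.

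Some libraries stood apart from their gland. The BMI prostate library 2 correlated more closely with the vesicular glands (mean r = 0.955) than with its own gland (0.930), and held 92.7 TPM of the prostate gene HOXB13 against 264 to 297 in the other prostate libraries. The Iso-seq library labelled BMI prostate had 3 HOXB13 reads against 218 in the DSE library, so its member reads are given by themselves where prostate is described and are included in counts over several libraries. The DSE testis library 2 held 23395 TPM of 7 germ cell genes against a testis median of 71966, and DSE epididymis library 1 had the lowest mean correlation with its own gland (0.872). The study lists that epididymis library with the lowest median transcript integrity, a measure of RNA quality, of all its RNA-seq libraries. Results were also computed without these 3 RNA-seq libraries. Salmon divided reads between Ensembl and Iso-seq transcripts, and 12 members with a gland difference, ATP6V0A4, ATP6V1E2, CA3, CA9, SLC4A11 and SLC26A3 among them, did not reach 1 TPM in 3 libraries on Ensembl transcripts alone. The summed level of 5 epididymal principal cell genes ranged from 1181 to 32085 TPM among the epididymis libraries. These genes did not move together. DSE library 1 held 8045 TPM of CST11 and 21.3 TPM of CRISP1, and BMI library 3 held 1891 TPM of CRISP1 and 4.42 TPM of GPX5. The epididymis libraries also held 2291 to 20837 TPM of 5 smooth muscle genes, against at most 4363 TPM elsewhere, and 103 to 2717 TPM of 6 red blood cell genes, against at most 199 TPM. The part of these cells in the epididymis results was not tested. The share of all TPM held by the 10 most abundant transcripts was 9.24% to 21.97% in testis and epididymis and 26.4% to 64.7% in the accessory glands. This lowers the TPM of all other transcripts there.

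Some families had another leading member in some glands. By mean share of the family's TPM, the carbonic anhydrases were led by CA9 in testis (67.7%), epididymis (44.8%) and vesicular gland (39.4%), by CA2 in prostate (61.0%) and by CA8 in bulbourethral gland (71.4%). SLC26A3 led its family in vesicular gland (76.4%) and epididymis (41.7%), while SLC4A2 and SLC9A3R1 each led theirs in 3 glands. ATP6V0C, ATP6V1E1, ATP6V0E1, ATP6AP1L, CA5B and SLC26A10 were not analysed here, so sums over a family leave them out. The summed level of the 22 proton pump genes found was 1498 ± 148 TPM in testis and 1189 ± 196 TPM in epididymis (mean ± SD, n = 6 libraries). It was 620 ± 105 TPM in vesicular gland, 808 ± 87.0 TPM in prostate and 1097 ± 106 TPM in bulbourethral gland. The SLC9 genes with their scaffolds were lowest in testis, at 72.3 ± 16.7 TPM, and between 333 and 416 TPM on average in the other 4 glands. The heat map of the tested members shows these patterns by library.

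**Figure D1:**
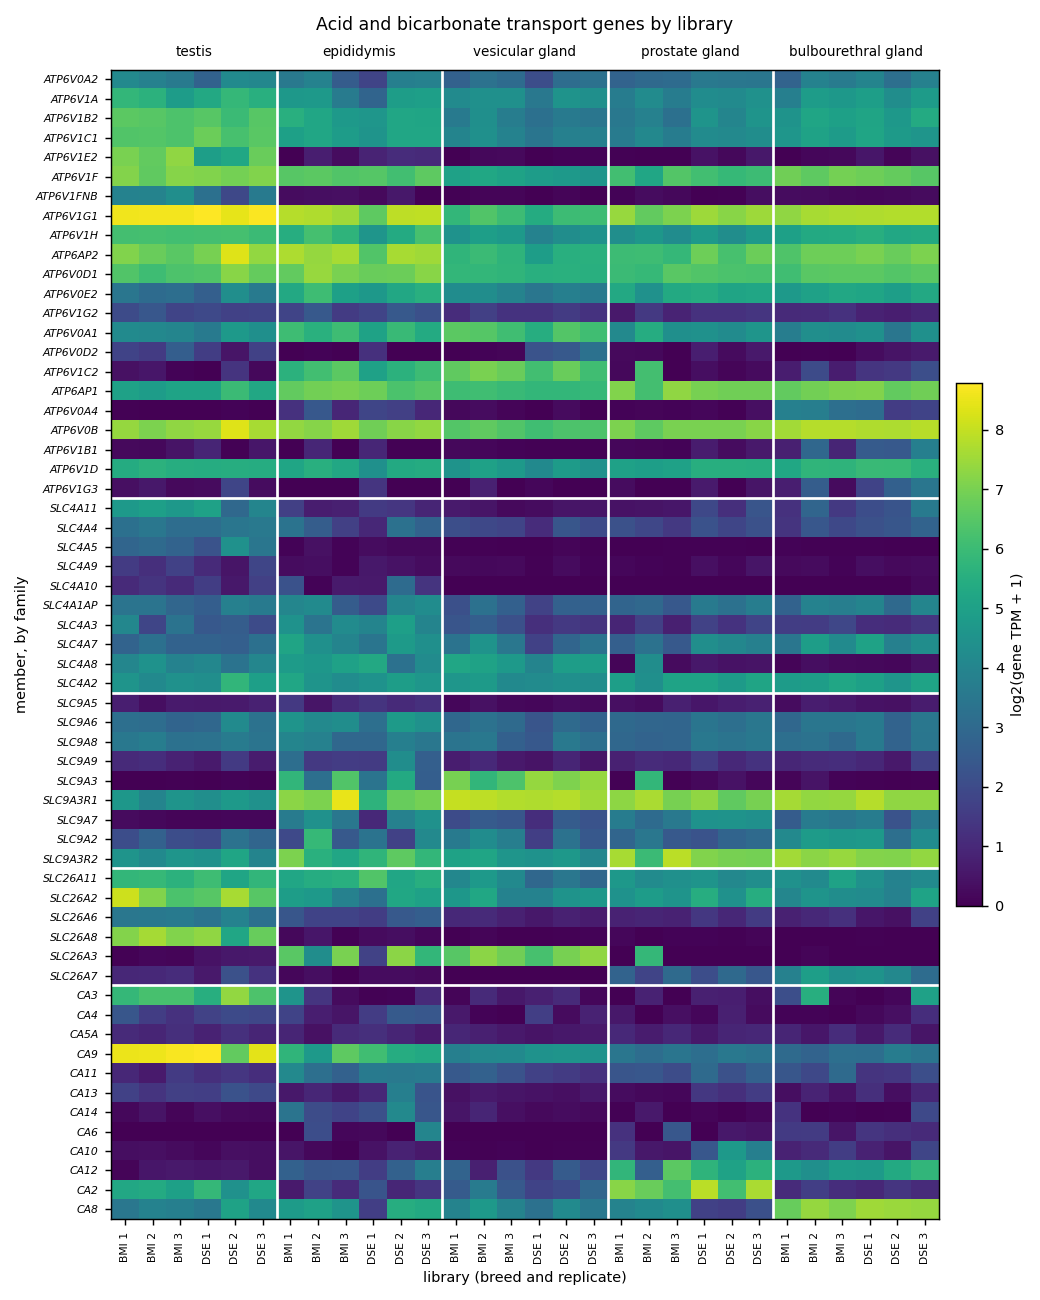
Level of 59 of the 60 tested members (rows, by family) in each of the 30 RNA-seq libraries (columns, by gland and breed), as log2(TPM + 1) on the colour scale. SLC26A8 and ATP6V1E2 stand out in the 6 testis libraries, SLC26A3, SLC9A3 and ATP6V1C2 in vesicular gland, epididymis and BMI prostate library 2, CA2 in prostate and CA8 in bulbourethral gland.

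In testis, 22 of the 60 tested members were higher and 12 were lower than in the other glands, where 34.6% of all genes tested were higher and 12.7% lower. The share of members called higher was thus near that of all genes, and the median log2 difference was 0.27 over the members and 0.31 over all genes. The members that were higher were 9 of the 22 proton pump genes, 5 of 10 SLC4 genes, 4 of 6 SLC26 genes and 4 of 12 carbonic anhydrases, and none of the 10 SLC9 genes, of which 5 were lower. With median-of-ratios size factors applied to the TPM, which shifted the log2 difference of a gene by a median of −0.19, the counts were 15 higher and 15 lower.

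SLC26A8, an anion transporter of the sperm tail that associates with the channel CFTR, was high in testis and near 0 in the other glands. Its level ran from 36.2 through a median of 140 to 191 TPM in testis and from 0 to 0.443 TPM in the other 24 libraries, a log2 difference of 6.76 ± 0.17 (SE, n = 6 against 24, limma adjusted p = 2.0e-21). The Iso-seq libraries held 116 and 113 SLC26A8 reads in BMI and DSE testis and none in the other 8. The gene lies at chr7:31722103-31791802 on the minus strand of Sscrofa11.1. SLC26A2, a sulfate transporter, ranged from 78.2 to 276 TPM in testis (median 114), above its highest level elsewhere, 43.5 TPM (log2 difference 2.48 ± 0.28, limma adjusted p = 1.3e-08). With Ensembl transcripts alone its difference turned to −0.956, so that the level of SLC26A2 in testis lay on Iso-seq transcripts, and that of SLC26A8 was 1.97.

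Among the proton pump genes, ATP6V1E2 (chr3:94030113-94033639), the form of the E subunit known from the sperm acrosome, ranged from 29.6 through 106 to 160 TPM in testis and was at most 1.16 TPM elsewhere. Its log2 difference was 6.03 ± 0.17 (limma adjusted p = 1.7e-20). ATP6V1FNB, whose gene neighbours that of the F subunit, ranged from 2.77 to 19.4 TPM (median 12.6) against at most 0.490 TPM elsewhere. Some widely used subunit genes were higher too: ATP6V1C1 ranged from 73.8 to 111 TPM in testis and from 9.67 to 35.8 TPM elsewhere, and ATP6V1G1 from 355 to 438 TPM against 41.5 to 247 TPM. The ranges of these 4 genes in testis lay above all other libraries. Others were not called, with log2 differences of 0.18 for ATP6V0D1, 0.29 for ATP6V1D, 0.44 for ATP6V0B and −0.95 for ATP6V0A1. Under size factors ATP6V0A1 was called lower, at −1.19 (limma adjusted p = 2.3e-07). ATP6AP1, an assembly protein of the pump, was lower (log2 difference −1.38), with 27.7 to 62.9 TPM in testis, as were ATP6V0E2 and ATP6V0A4.

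Carbonic anhydrases of testis were led by CA9, a transmembrane enzyme with its active site outside the cell. CA9 ranged from 100 through a median of 370 to 441 TPM in testis against 6.03 to 97.4 TPM elsewhere (log2 difference 4.15 ± 0.22, limma adjusted p = 4.8e-15). CA3, an enzyme abundant in skeletal muscle and fat cells, ranged from 44.3 to 163 TPM in testis (median 73.8), with a log2 difference of 5.14 ± 0.63 (limma adjusted p = 5.8e-08). Its range met that of the other glands, where it reached 44.4 TPM in BMI bulbourethral gland library 2. Beside CA3, that library held the highest sum of 5 adipocyte genes in its gland (109 TPM), DSE bulbourethral gland library 3 with 31.4 TPM of CA3 the highest sum of 8 skeletal muscle genes (1963 TPM), and BMI epididymis library 1 with 22.2 TPM of CA3 the highest sums of both in its gland (63.2 and 799 TPM). In testis these sums were at most 28.5 and 17.8 TPM. Of the 28.5 TPM, in DSE testis library 1, LEP made up 27.6 TPM, while ADIPOQ was at most 0.113 TPM and FABP4 at most 0.264 TPM in testis. The part of fat and muscle cells in the CA3 levels was not tested. CA2, the widespread fast cytosolic enzyme, and CA4 were also higher in testis, though CA4 missed the limit under size factors (0.95) and without BMI testis library 1 (0.94).

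Bicarbonate transporters higher in testis were SLC4A11, SLC4A5, SLC4A8, SLC4A4 and SLC4A9. SLC4A11, a proton and water carrier related to the bicarbonate transporters, ranged from 6.75 to 31.4 TPM (median 25.2) against at most 11.2 TPM elsewhere. SLC4A5, a sodium bicarbonate cotransporter, ranged from 3.75 to 20.8 TPM against at most 0.324 TPM, so that its testis libraries lay above all others, with a log2 difference of 3.06 ± 0.16 (limma adjusted p = 3.6e-15). SLC4A8 was not called with Ensembl transcripts alone (0.60), nor SLC4A9 under size factors (0.97) or without DSE testis library 3 (0.89).

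Among the 12 members lower in testis were 5 of the 10 SLC9 genes and scaffolds. SLC9A3R1 ranged from 14.6 to 26.2 TPM in testis and from 50.4 to 357 TPM elsewhere, and SLC9A7, an exchanger of the Golgi network, was at most 0.202 TPM against 1.01 to 21.7 TPM. SLC9A3R1 missed the limit in testis with Ensembl transcripts alone (−0.84). CA12, a transmembrane enzyme of epithelia, was at most 0.532 TPM in testis. These 3 genes did not overlap between testis and the other libraries. ATP6V1C2 (−3.32 ± 0.50, limma adjusted p = 1.8e-06), SLC9A3 (−3.09 ± 0.54, 1.4e-05) and SLC26A3 were lower against the mean of the other glands, but were also low in 5 prostate libraries and in bulbourethral gland. On Ensembl transcripts alone the differences were −1.77 for ATP6V1C2 and −1.68 for SLC9A3. The sum of 5 epithelial genes, EPCAM among them, was 14.3 to 41.5 TPM in testis and at least 727 TPM in every other library, and its part in these differences was not tested.

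**Figure D2:**
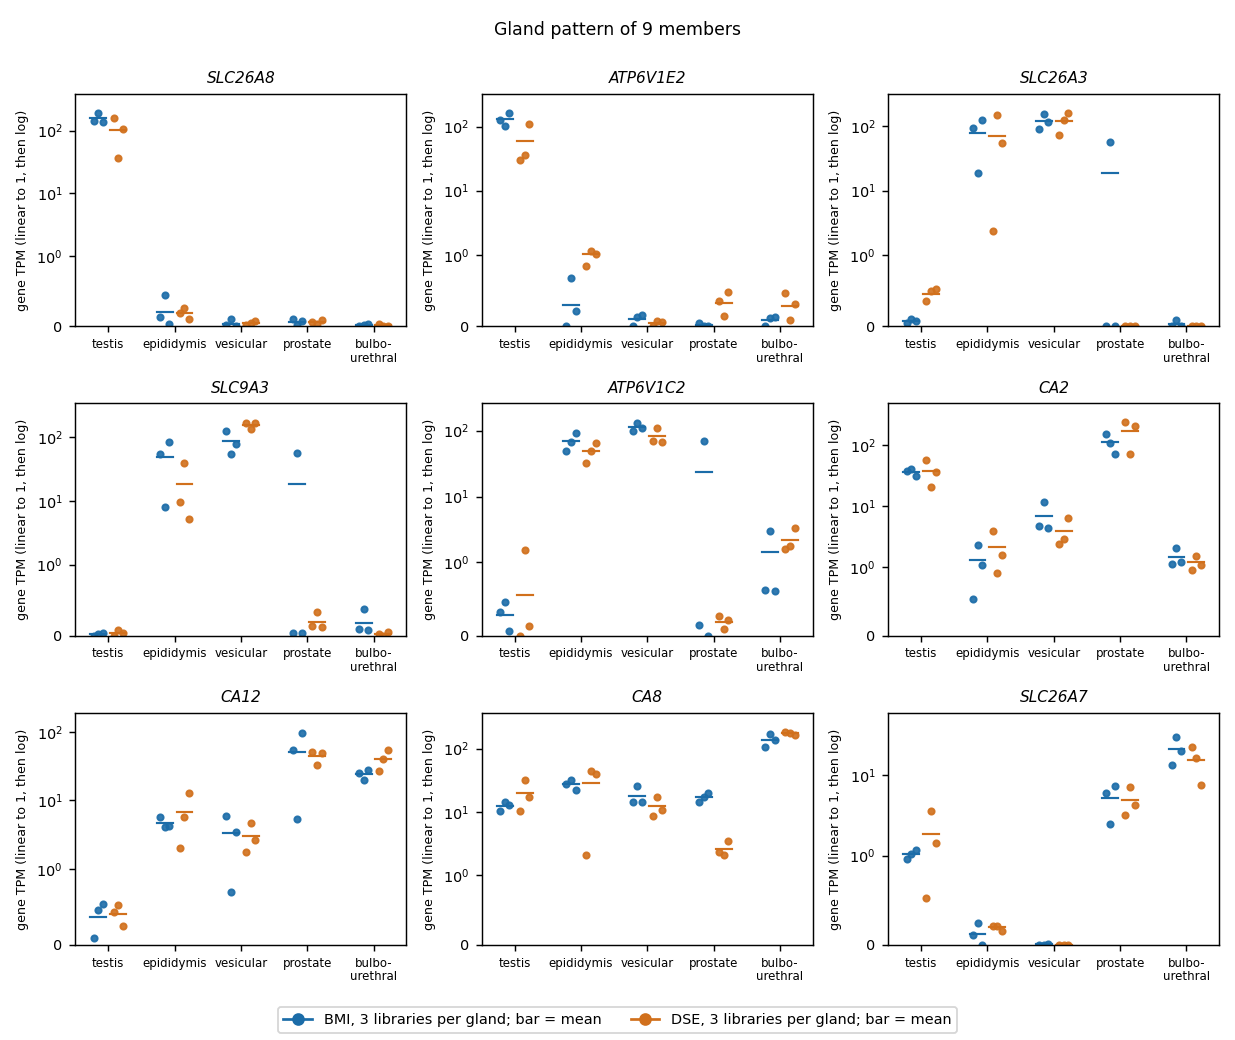
TPM of 9 members in the 30 RNA-seq libraries by gland, with a point for each library, a bar for the mean of each breed, colours for the breeds, and an axis that is linear up to 1 TPM and logarithmic above. SLC26A8 and ATP6V1E2 are high in testis, SLC26A3, SLC9A3 and ATP6V1C2 in vesicular gland and epididymis, CA2 in prostate, CA8 and SLC26A7 in bulbourethral gland, and CA12 in the last 2 glands.

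In epididymis, 11 members were higher and 4 lower, against 15.1% and 6.56% of all genes. The median log2 difference was 0.30 over the members and 0.25 over all genes. The 11 were 4 SLC9, 3 SLC4, 2 carbonic anhydrase, 1 SLC26 and 1 proton pump gene, and 20 of the 22 proton pump genes were not called in either direction. Under size factors, which shifted the differences by a median of −0.41, 8 were higher and 6 lower.

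The leading members in epididymis were ATP6V1C2, a form of the C subunit of the pump found in epithelia, SLC26A3, a chloride/bicarbonate exchanger, and SLC9A3, the sodium/proton exchanger of the luminal membrane. ATP6V1C2 ranged from 31.9 through 56.8 to 93.7 TPM (log2 difference 3.45 ± 0.50, limma adjusted p = 3.2e-06), and its difference was 1.92 on Ensembl transcripts alone. SLC26A3 ranged from 2.34 through 74.1 to 152 TPM (3.4 ± 0.62, 6.1e-05), and SLC9A3 from 5.12 through 24.6 to 83.2 TPM (2.43 ± 0.54, 0.00048). The difference of SLC9A3 was 0.034 with Ensembl transcripts alone (adjusted p = 0.959) and was not called. All 3 were also high in vesicular gland, so their values in the 2 glands overlapped.

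Other members higher in epididymis were at lower levels. SLC4A3, a chloride/bicarbonate exchanger, ranged from 9.43 to 30.4 TPM (median 16.2; log2 difference 2.33 ± 0.22), and CA14, a transmembrane carbonic anhydrase, from 2.42 to 16.8 TPM (2.29 ± 0.27) against at most 2.86 TPM elsewhere. CA11, a relative of the carbonic anhydrases without enzyme activity, ranged from 5.57 to 16.5 TPM and SLC9A9, an exchanger of endosomes, from 1.72 to 19.0 TPM. SLC4A8, a sodium-driven chloride/bicarbonate exchanger, was higher by 2.05 ± 0.36, but by 0.62 and not called with Ensembl transcripts alone (adjusted p = 0.246). CA2 was lower in epididymis, at 0.541 to 3.92 TPM (−2.64 ± 0.26, limma adjusted p = 7.4e-09), and SLC26A7 was at most 0.247 TPM. Single epididymis libraries stood out for some members: SLC9A2 reached 58.5 TPM in BMI library 2, which also held the highest sum of principal cell genes, and CA13 reached 12.7 TPM in DSE library 2. SLC26A8 and ATP6V1E2 were called lower in epididymis, as in each of the 3 accessory glands, because testis was among the glands averaged. With Ensembl transcripts alone SLC26A8 was called lower in none of these 4 glands, and ATP6V1E2 missed the limit in epididymis with a pseudocount of 0.1 and without DSE testis library 3 or BMI epididymis library 1.

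In vesicular gland, 7 members were higher and 16 lower, against 2.95% and 30.1% of all genes, and the median log2 difference was −0.71 over the members and −0.69 over all genes. Under size factors, which shifted the differences by a median of 0.64, the counts were 8 higher and 5 lower, so that most of the lower calls depended on the scaling while the higher calls did not fall in number. SLC9A3 (chr16:79625519-79704083) ranged from 54.2 through 130 to 169 TPM, a log2 difference of 5.39 ± 0.54 (limma adjusted p = 8.2e-09). SLC26A3 (chr9:107480636-107518728) ranged from 73.6 through 122 to 159 TPM (5.18 ± 0.62, 1.2e-07), and ATP6V1C2 (chr3:125775096-125825742) from 67.5 through 104 to 130 TPM (4.37 ± 0.50, 6.0e-08). On Ensembl transcripts alone these differences were smaller but still called, at 4.11 for SLC9A3 and 2.21 for ATP6V1C2, and SLC26A3 had no value. The Iso-seq libraries held 240 and 257 SLC26A3 reads in BMI and DSE vesicular gland. SLC9A3 was higher in vesicular gland than in epididymis (epididymis minus vesicular gland −2.37 on the log2 scale, limma adjusted p = 0.0042), whereas SLC26A3 (adjusted p = 0.119) and ATP6V1C2 (0.327) did not pass the test between these glands.

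SLC4A8 (14.7 to 35.5 TPM), SLC9A3R1 (184 to 258 TPM) and ATP6V0A1, a widely used form of the a subunit (43.9 to 94.4 TPM), were also higher in vesicular gland. The difference of SLC9A3R1 there was 0.27 with Ensembl transcripts alone and not called (adjusted p = 0.282). Of the proton pump genes, 7 were lower, led by ATP6V1G1 with 41.5 through 64.1 to 83.9 TPM, below all other libraries (97.1 to 438 TPM; log2 difference −1.83 ± 0.15, limma adjusted p = 4.3e-10). Under size factors it missed the limit, at −0.98. SLC26A7 was at most 0.0151 TPM, CA3 at most 1.09 TPM (not called with a pseudocount of 0.1, adjusted p = 0.056), and SLC4A11 at most 0.569 TPM.

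In prostate, 7 members were higher and 13 lower, against 3.70% and 12.8% of all genes, with a median log2 difference of −0.44 over the members and −0.28 over all genes. CA2 (chr4:51193756-51211259) ranged from 69.5 through a median of 128 to 236 TPM, above all other libraries (0.541 to 56.1 TPM), with a log2 difference of 4.40 ± 0.26 (limma adjusted p = 2.0e-12). Its mean was 12.2 times that of the other glands. Between prostate and testis, the gland next in order, CA2 still differed (testis minus prostate −1.79 on the log2 scale). The DSE prostate Iso-seq library held 97 CA2 reads, more than any other.

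CA12 ranged from 5.28 through 49.8 to 95.1 TPM in prostate (log2 difference 2.75 ± 0.37) and from 19.6 through 27.4 to 53.6 TPM in bulbourethral gland (2.42 ± 0.37), and these 2 glands did not pass the test against each other (adjusted p = 0.850). The lowest prostate value, 5.28 TPM, was that of BMI library 2. CA10, a carbonic anhydrase relative without enzyme activity, ranged from 0.412 to 25.7 TPM (log2 difference 1.76 ± 0.21). SLC9A7 (7.32 to 21.7 TPM), SLC9A3R2 (62.1 to 232 TPM) and SLC26A7 (2.45 to 7.23 TPM) were higher too. SLC26A7 missed the limit with Ensembl transcripts alone (0.85) and narrowly without DSE prostate library 2.

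The genes that led in vesicular gland were lower in prostate apart from 1 library. SLC26A3, SLC9A3 and ATP6V1C2 were at most 0.492 TPM in 5 prostate libraries and at 56.1, 55.7 and 70.3 TPM in BMI library 2, and SLC4A8 was at 18.8 TPM there. Without the 3 libraries that stood apart, the log2 differences moved from −2.19 to −3.36 for SLC26A3, from −1.75 to −2.73 for SLC9A3, from −2.38 to −3.37 for ATP6V1C2 and from −2.36 to −3.01 for SLC4A8, while that of CA2 was 4.39. The call of SLC9A3 was lost when BMI prostate library 1 or 3 was left out and with Ensembl transcripts alone (−0.78). CA3 was at most 0.775 TPM in prostate (−2.12 ± 0.63). The Iso-seq library labelled BMI prostate held 298 SLC26A3, 87 SLC9A3, 31 ATP6V1C2 and 51 SLC4A8 reads and 2 CA2 reads, against none of the first 4 genes in DSE prostate. What gave that library and BMI library 2 these reads was not tested.

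In bulbourethral gland, 8 members were higher and 10 lower, against 8.45% and 12.0% of all genes, with median log2 differences of −0.03 over the members and −0.05 over all genes. CA8 (chr4:73047847-73199191), a relative of the carbonic anhydrases that has lost the enzyme activity and binds the IP3 receptor, ranged from 106 through a median of 167 to 185 TPM against 2.06 to 43.5 TPM elsewhere (log2 difference 3.43 ± 0.33, limma adjusted p = 7.8e-09). SLC26A7 (chr4:45448887-45637427), an anion exchanger of acid-secreting epithelia, ranged from 7.59 through 18.0 to 29.6 TPM against at most 7.23 TPM (3.17 ± 0.21, limma adjusted p = 1.0e-11). The bulbourethral libraries lay above all others for both genes. In order, SLC26A7 was next highest in prostate, and these glands differed (prostate minus bulbourethral gland −1.63 on the log2 scale). Iso-seq held 242 and 237 CA8 reads and 25 and 38 SLC26A7 reads in BMI and DSE bulbourethral gland.

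Of the specialised proton pump forms, ATP6V0A4, ATP6V1B1 and ATP6V1G3 were higher in bulbourethral gland, at low levels, while ATP6V1C2 was lower (log2 difference −2.12, limma adjusted p = 0.0010) and ATP6V0D2 (−0.65) and ATP6V1G2 (−0.64) were not called. The call of ATP6V1C2 was lost with a pseudocount of 0.1 (adjusted p = 0.051) and with Ensembl transcripts alone (−0.95). ATP6V0A4, the a subunit form of kidney intercalated and epididymal clear cells, was at 13.2, 12.6 and 8.23 TPM in the BMI libraries and 7.54, 1.93 and 2.38 TPM in the DSE libraries, against at most 4.34 TPM elsewhere (log2 difference 2.41 ± 0.18, limma adjusted p = 1.2e-10). ATP6V1B1, the B subunit form of the same cells, was at 0.699, 6.62 and 0.875 TPM in BMI and 4.80, 4.51 and 13.0 TPM in DSE, against at most 0.943 TPM elsewhere (1.95 ± 0.23, 1.5e-07). ATP6V1G3, the kidney form of the G subunit, was at 0.680, 5.08 and 0.198 TPM in BMI and 2.42, 5.44 and 9.90 TPM in DSE (1.62 ± 0.27, 2.0e-05). ATP6V1B1 and ATP6V1G3 were thus high and low in the same libraries, and ATP6V0A4 was not.

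FOXI1, the forkhead factor of acid-secreting cells and ionocytes, was the pathway gene higher in bulbourethral gland (log2 difference 1.82 ± 0.26), at 0.582, 5.74 and 1.17 TPM in BMI and 3.16, 3.97 and 9.84 TPM in DSE. Over these 6 libraries its TPM had a Pearson r of 0.987 and a Spearman rho of 0.943 with ATP6V1B1, 0.946 and 0.886 with ATP6V1G3, and −0.574 and −0.543 with ATP6V0A4, given as a description of libraries that share a gland. Other genes of clear cells and ionocytes were not highest in this gland: KIT was at 0.522 to 4.51 TPM against 2.29 to 8.55 TPM in prostate, and DMRT2 at 0.148 to 2.11 TPM against 0.623 to 2.49 TPM in testis. The part of such cells in these levels was not tested. SLC9A2, a sodium/proton exchanger of epithelia (8.15 to 27.1 TPM), and SLC9A3R2 (137 to 191 TPM) were higher. SLC26A3 (at most 0.0859 TPM), SLC9A3 (0.380), SLC4A8 (0.306) and CA2 (0.965 to 2.08 TPM) were lower.

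Since TPM is per length, subunit forms of the proton pump were set beside each other as shares of their family in each library. The exact two-sided permutation test over all 593775 splits of 6 against 24 libraries was run for 30 combinations of form and gland, and 8 passed an adjusted p of 0.05. In vesicular gland ATP6V1C2 held 87.1% ± 1.9 (SD, n = 6) of the C subunit TPM against a mean of 21.3% elsewhere (exact p = 1.7e-06, the smallest possible, adjusted p = 5.1e-05), and all 6 libraries lay above all others. In testis it held 0.526% against 42.9% (adjusted exact permutation p = 0.032), and in epididymis 64.2%, which did not pass (0.131). In BMI prostate library 2 its share was 81.2%, against at most 1.48% in the other prostate libraries, and in bulbourethral gland it was 2.20% to 12.4%. A low share was thus not particular to testis, where it was at most 2.02%.

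In bulbourethral gland ATP6V0A4 held 20.9% of the a subunit TPM against 1.01% elsewhere (adjusted exact permutation p = 7.6e-05), with 6.64% to 42.0% in single libraries. ATP6V1B1 held 12.3% of the B subunit TPM against 0.870% (adjusted exact p = 0.00010), and ATP6V1G3 1.81% of the G subunit TPM against 0.182% (0.0026). In BMI alone the difference of ATP6V1G3 was 0.895 points and was not called (adjusted exact permutation p = 0.176). With Ensembl transcripts alone the difference of ATP6V0A4 was −0.144 points. The widespread forms ATP6V1B2 and ATP6V1G1 thus still held most of the B and G subunit TPM in this gland on average. ATP6V1G2 held 2.51% in vesicular gland against 0.926% (adjusted exact permutation p = 0.00011) and 0.485% in bulbourethral gland against 1.43% (0.037). ATP6V0D2 held 5.46% of the d subunit TPM in vesicular gland against 0.890% (0.032), nearly all of it from the DSE libraries. That call was lost without DSE vesicular gland library 1 (adjusted exact permutation p = 0.092), 2 (0.107) or 3 (0.125), and the difference was 2.43 points without library 3, against 4.57 with all libraries. Without the 3 libraries that stood apart, the calls of ATP6V1C2 in testis (adjusted exact permutation p = 0.066), ATP6V1G2 in bulbourethral gland (0.056) and ATP6V0D2 in vesicular gland (0.052) were lost. That of ATP6V1C2 in testis was also lost without DSE vesicular gland library 2 (0.050) or 3 (0.055), and that of ATP6V1G2 in bulbourethral gland without either of these or any of 5 bulbourethral libraries (0.050 to 0.075). The E and e families were left out because ATP6V1E1 and ATP6V0E1 were not analysed here.

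**Figure D3:**
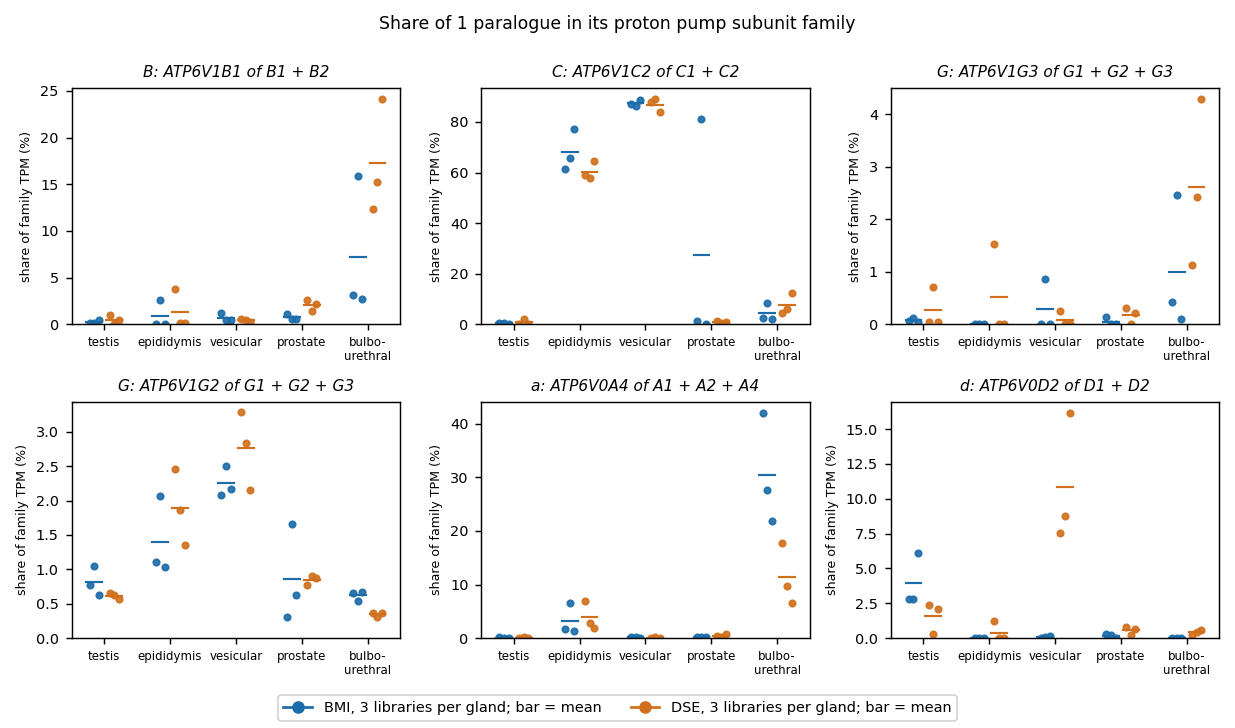
Share in percent of its subunit family's TPM held by each of 6 specialised proton pump forms, with a point for each of the 30 RNA-seq libraries by gland, coloured by breed. ATP6V1C2 lies between 83.8% and 89.0% in vesicular gland, and ATP6V0A4 and ATP6V1B1 reach 42.0% and 24.1% in bulbourethral gland.

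Between pairs of glands, the members called out of 60 were 32 for testis and epididymis (51.0% of all genes), 33 for testis and vesicular gland (52.9%), 35 for testis and prostate (48.9%) and 36 for testis and bulbourethral gland (49.1%). They were 25 for epididymis and vesicular gland (36.5%), 25 for epididymis and prostate (21.3%), 23 for epididymis and bulbourethral gland (21.4%), 15 for vesicular gland and prostate (14.8%), 29 for vesicular and bulbourethral gland (27.7%) and 11 for prostate and bulbourethral gland (7.65%). The fewest members were thus called in that last comparison, as over all genes. CA9 was highest in testis, then epididymis and vesicular gland. Its vesicular gland minus prostate log2 difference (0.91) was not called, and nor was that of prostate minus bulbourethral gland (0.12).

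Start sites could be compared because the annotation holds 320 Iso-seq transcripts among the 501 of the members. SLC4A11 and SLC26A11, an anion exchanger of lysosomes and cell membranes, were read in testis from an additional start within the gene, downstream of the start used elsewhere (by 974 bases in SLC4A11). The 250 bases before and 50 after a start are shown for both SLC4A11 starts and for the additional SLC26A11 start, because full-length reads from the downstream starts came mostly from testis. For SLC4A11 the upstream window is that of the start with most reads outside testis (7 of 11 reads), and 3 reads began further upstream. The SLC4A11 windows lie on the plus strand at chr17:32446554-32446853 and chr17:32447528-32447827, and that of SLC26A11 on the minus strand at chr12:2237593-2237892, all of Sscrofa11.1.
SLC4A11, start most read in other glands: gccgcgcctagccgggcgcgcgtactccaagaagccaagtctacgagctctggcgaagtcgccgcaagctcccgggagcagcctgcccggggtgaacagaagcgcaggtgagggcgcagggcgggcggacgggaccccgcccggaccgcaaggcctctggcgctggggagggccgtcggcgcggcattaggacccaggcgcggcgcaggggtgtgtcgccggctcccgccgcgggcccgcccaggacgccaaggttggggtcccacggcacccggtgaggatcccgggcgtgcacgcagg
SLC4A11, start used in testis: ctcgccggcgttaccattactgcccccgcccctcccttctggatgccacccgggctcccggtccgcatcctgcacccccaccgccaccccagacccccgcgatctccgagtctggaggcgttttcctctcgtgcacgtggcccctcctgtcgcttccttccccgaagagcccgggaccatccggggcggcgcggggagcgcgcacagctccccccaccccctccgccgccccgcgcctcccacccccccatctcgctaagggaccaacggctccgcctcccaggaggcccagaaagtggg
SLC26A11, additional start in testis: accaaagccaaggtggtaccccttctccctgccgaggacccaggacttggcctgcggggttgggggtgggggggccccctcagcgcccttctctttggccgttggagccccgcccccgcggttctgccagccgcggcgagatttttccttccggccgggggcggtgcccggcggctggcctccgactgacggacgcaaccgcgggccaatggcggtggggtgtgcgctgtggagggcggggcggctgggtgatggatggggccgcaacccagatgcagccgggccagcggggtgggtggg

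The downstream start gave 31 of 32 SLC4A11 full-length reads in BMI testis (96.9%, exact 95% binomial interval 83.8% to 99.9%), 63 of 64 in DSE testis (98.4%, 91.6% to 99.96%) and 1 of 11 in the other 8 libraries. Reads of 2 isoforms without a position in the merged annotation were left out, namely 1 read in testis and 8 of the 19 SLC4A11 reads in the other 8 libraries. Of these 8, 7 belonged to an isoform listed as beginning as far from the annotated gene start as the upstream start shown. In RNA-seq, transcripts from it summed to 21.0 ± 8.96 TPM in testis against 1.30 ± 0.995 TPM from the upstream start. The 3112-base form whose start is shown had a predicted reading frame of 874 residues. The higher SLC4A11 level in testis was therefore carried by the downstream start.

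For SLC26A11 the downstream start gave 19 of 41 reads in BMI testis (46.3%, 30.7% to 62.6%) and 52 of 67 in DSE testis (77.6%, 65.8% to 86.9%). It gave 0 of 325 in the other 8 libraries (14 of them from the library labelled BMI prostate), with an exact interval of 0% to 1.13%. Intervals cover counting error only. Transcripts from the downstream start summed to 32.5 ± 13.3 TPM in testis beside 20.6 ± 3.44 TPM from the upstream start. Outside testis, DSE epididymis library 1, which the study lists with the lowest transcript integrity, held 59.5 TPM from the downstream start. This was 70.9% of SLC26A11 there, and the median over the 6 epididymis libraries was 0%. Single libraries also reached 39.1% in vesicular gland, 32.3% in bulbourethral gland and 17.2% in prostate, against 26.7% to 76.3% in testis. The shares summed over all downstream transcripts thus overlapped. The 70.9% and 39.1% were those of a 2105-base form, which had full-length reads in testis alone. The 2201-base form, whose start is shown, held 10.3% to 44.7% in testis and at most 1.18% in any other library. The testis form of 2201 bases had a predicted frame of 272 residues against 473 for the form of 2571 bases.

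CA9 in testis was read from isoforms that began downstream of the annotated start. These gave 11 of 11 reads in each testis library (interval 71.5% to 100%) and 7 of 10 elsewhere, and 336 ± 122 TPM in testis beside 2.69 ± 1.70 TPM from the upstream start. No reading frame was listed by the authors for these 4 isoforms, of 1054 to 1783 bases, against 442 residues for the upstream form of 1529 bases. The high CA9 level of testis was thus almost wholly of transcripts without a listed frame. The other coding predictions that the study combined are not given here. The downstream isoforms together also led in the other glands, with a median of 82.7% or more of CA9 TPM in each.

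**Figure D4:**
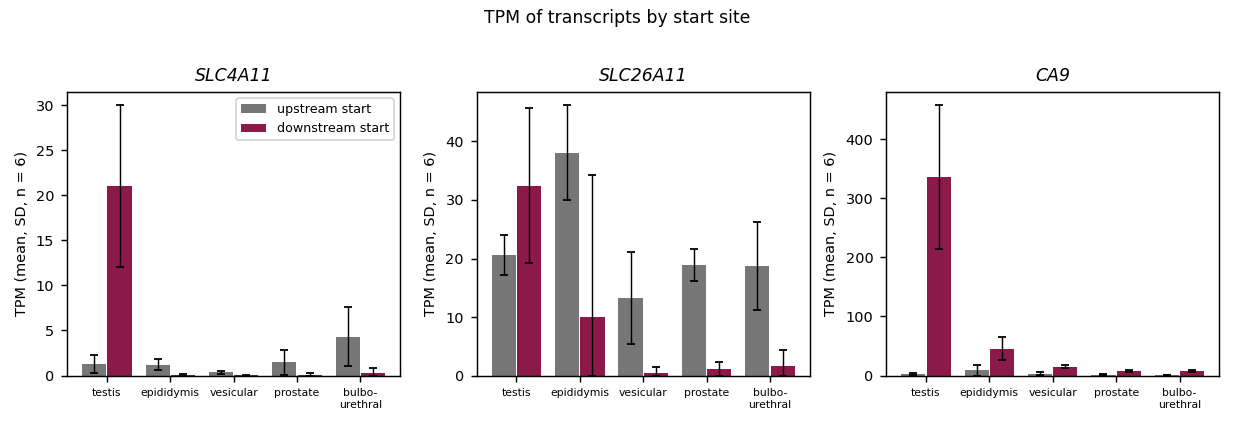
Mean TPM (bars; error bars are SD over 6 libraries, cut at 0) of transcripts from the upstream and the downstream start of SLC4A11, SLC26A11 and CA9 in the 5 glands. The downstream start leads in testis for all 3 genes (21.0, 32.5 and 336 TPM), and the wide bar of SLC26A11 in epididymis comes from 1 library.

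Shares of single transcripts within their gene were tested by limma for 66 transcripts of 19 members, with calls at 10 percentage points. In testis, 12 transcripts of 6 members were called, against 27.3% of all transcripts tested, and in epididymis 2 transcripts of ATP6V1H, against 5.90%. The 2201-base form of SLC26A11 held 28.5% in testis against 0.136% elsewhere (difference 28.3 ± 2.64 points, limma adjusted p = 7.1e-09), and the 2571-base form held 25.0% against 79.8%. The 1679-base form of ATP6V1B2 held 55.7% against 26.8%, and the 1054-base form of CA9 95.1% against 68.0%. The sodium bicarbonate cotransporter SLC4A7 had less of its 7106-base form in testis (23.8% against 44.8%) and more of its 3303-base form (29.4% against 11.7%), and the exchanger SLC9A8 had more of its 3930-base form (39.8% against 14.7%). The 4403-base form of SLC4A2, a widespread anion exchanger, held 1.78% in testis against 15.0%.

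ATP6V1H, a regulatory subunit of the cytosolic part of the pump, had 15.0% of its TPM in the 1799-base form in epididymis against 49.1% elsewhere (difference −34.1 ± 6.37 points, limma adjusted p = 0.0012). Single epididymis libraries ran from 0% to 45.5% (SD 23.2), against 25.0% to 65.7% elsewhere, so that the ranges overlapped. The 2011-base form of ATP6V1H held 39.6% against 18.1% (21.6 ± 5.13, limma adjusted p = 0.0092), a call that was lost without the 3 libraries that stood apart (17.9 points, adjusted p = 0.056).

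Sequence before the starts was searched on both strands for 3 motifs, in windows of 250 bases before and 50 after the start of each gene's most abundant transcript. Overlapping matches were counted separately. CLEAR elements (TCACGTG, the site of regulators of lysosomal genes) lay in 4.87% of 19326 windows and in 6 of 60 member windows, of which 5 belonged to the 22 proton pump genes (ATP6V0B, ATP6V1A, ATP6V1C1, ATP6V1G1 and ATP6V1H). The forkhead core (TGTTTAC), the core of sites that FOXI1 and many related factors bind, lay in 2.48% of all windows and in those of ATP6V1B1, SLC26A3 and SLC4A3. The cyclic AMP response element (TGACGTNA) lay in 4.37% of all windows and in no member. The window of ATP6V1H (chr4:77211285-77211584, plus strand) is shown for its CLEAR matches and that of ATP6V1B1 (chr3:71591796-71592095, minus strand) for its forkhead core at position −80, each in capitals. A match describes letters in the window, not a site in use.
ATP6V1H: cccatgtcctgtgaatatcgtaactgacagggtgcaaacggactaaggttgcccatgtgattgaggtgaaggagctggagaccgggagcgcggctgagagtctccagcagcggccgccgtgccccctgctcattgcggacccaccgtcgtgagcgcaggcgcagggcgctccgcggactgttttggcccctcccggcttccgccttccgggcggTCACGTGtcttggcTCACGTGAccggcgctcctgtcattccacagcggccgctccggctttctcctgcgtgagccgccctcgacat
ATP6V1B1: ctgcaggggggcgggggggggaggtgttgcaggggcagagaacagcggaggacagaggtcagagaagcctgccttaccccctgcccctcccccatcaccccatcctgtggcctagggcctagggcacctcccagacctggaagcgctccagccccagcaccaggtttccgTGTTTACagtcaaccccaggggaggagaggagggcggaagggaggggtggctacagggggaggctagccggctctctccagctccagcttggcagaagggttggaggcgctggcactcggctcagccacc

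Other genes of acid and bicarbonate handling were taken from a list of 25, of which 19 were tested. In testis 8 were higher, where 34.6% of all genes were called higher, namely ADCY10, the bicarbonate-sensing adenylyl cyclase of sperm (log2 difference 4.78), the sperm exchangers SLC9B1 (5.67) and SLC9C1 (4.14), the proton channel HVCN1 (3.41), and OXR1, NCOA7, DMXL2 and WDR7, which are known to bind or assemble the pump (1.21 to 2.24). CFTR, the chloride and bicarbonate channel, was lower in testis (−1.06) and higher in epididymis (1.55). ADCY10 and SLC9B1 were lower in every other gland and SLC9C1 in the 3 accessory glands, since testis was among the glands averaged. Besides these, RNASEK, CCDC115 and HVCN1 were lower in vesicular gland (6 of the 19 in all, against 30.1% of all genes) and NCOA7 in prostate, and FOXI1 was higher in bulbourethral gland.

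In Iso-seq, 53 of the 68 members had a full-length read, 12401 reads in all and 708 to 1622 per library of 231413 to 458697 reads. Of 45 members with at least 20 reads, 27 were highest in the same gland as by TPM, with the library labelled BMI prostate included. Among those that were not, ATP6V0A4 and ATP6V1B1 had 21 and 17 reads in BMI epididymis against 5 and 2 in BMI bulbourethral gland, and CA3 had 155 reads in BMI bulbourethral gland against 33 and 39 in testis. With 1 library per breed and gland these counts have no replicate check.

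Between the breeds, none of the 60 tested members was called in any gland when each gland was fitted alone. Over all genes, limma called 0.197% for testis, 0.00% for epididymis and, in the accessory glands, 0.0152% (vesicular), 0.0859% (prostate) and 0.0253% (bulbourethral). At an unadjusted p below 0.05 there were 2, 1, 12, 18 and 4 members in the same order of glands, where 12.6%, 2.44%, 15.4%, 26.2% and 6.07% of all genes had such a p. The member with the smallest p was SLC26A3 in testis (DSE minus BMI log2 difference 0.44, limma adjusted p = 0.087), ATP6V1E2 in epididymis (0.67), ATP6V0D2 in vesicular gland (2.60 ± 0.31, 0.114), CA8 in prostate (−2.34 ± 0.21, 0.054) and ATP6V0D2 in bulbourethral gland (0.44, 0.349). CA8 in prostate was at 14.2, 17.0 and 19.8 TPM in BMI and 2.27, 2.06 and 3.38 TPM in DSE, so that the breeds did not overlap. CA8 in prostate passed the test with a pseudocount of 0.1 (adjusted p = 0.046), with size factors (0.049) and with Ensembl transcripts alone (0.035).

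When all glands were fitted together, so that they shared 1 estimate of the spread, 6 members were called between the breeds. Over all genes this fit called 4.78% for testis, 0.702% for epididymis and, in the accessory glands, 0.490% (vesicular), 0.596% (prostate) and 0.298% (bulbourethral). The members were ATP6V1E2 (−1.36, limma adjusted p = 0.0056) and ATP6V1FNB (−1.13, 0.0067) in testis, CA13 in epididymis (1.65, 0.039), ATP6V0D2 in vesicular gland (2.60, 4.2e-05), CA10 in prostate (2.80, 0.00014) and ATP6V0A4 in bulbourethral gland (−1.47, 0.048).

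The breed difference itself differed between glands for ATP6V0D2, CA10 and ATP6V1E2, against 2.94% of all genes. ATP6V0D2, the d subunit form of osteoclasts and kidney, was at 0, 0.0589 and 0.0848 TPM in BMI vesicular gland and 3.70, 4.52 and 8.78 TPM in DSE, while its DSE minus BMI log2 difference in testis was −0.71 (limma F test adjusted p = 0.00065). Iso-seq held 0 and 5 reads of it in BMI and DSE vesicular gland. CA10 in prostate was at 1.72, 0.484 and 0.412 TPM in BMI and 4.28, 25.7 and 12.7 TPM in DSE (adjusted p = 0.0031), and its log2 difference was between −0.11 and 0.37 in the other glands. ATP6V1E2 in testis was at 128, 102 and 160 TPM in BMI and 29.6, 36.2 and 110 TPM in DSE (adjusted p = 0.040), so that the breeds overlapped, and Iso-seq held 14 and 1 reads. The DSE testis value of 36.2 TPM is that of library 2, which was low in germ cell genes, and without the 3 libraries that stood apart ATP6V1E2 was no longer called. It was not called with a pseudocount of 0.1 either.

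**Figure D5:**
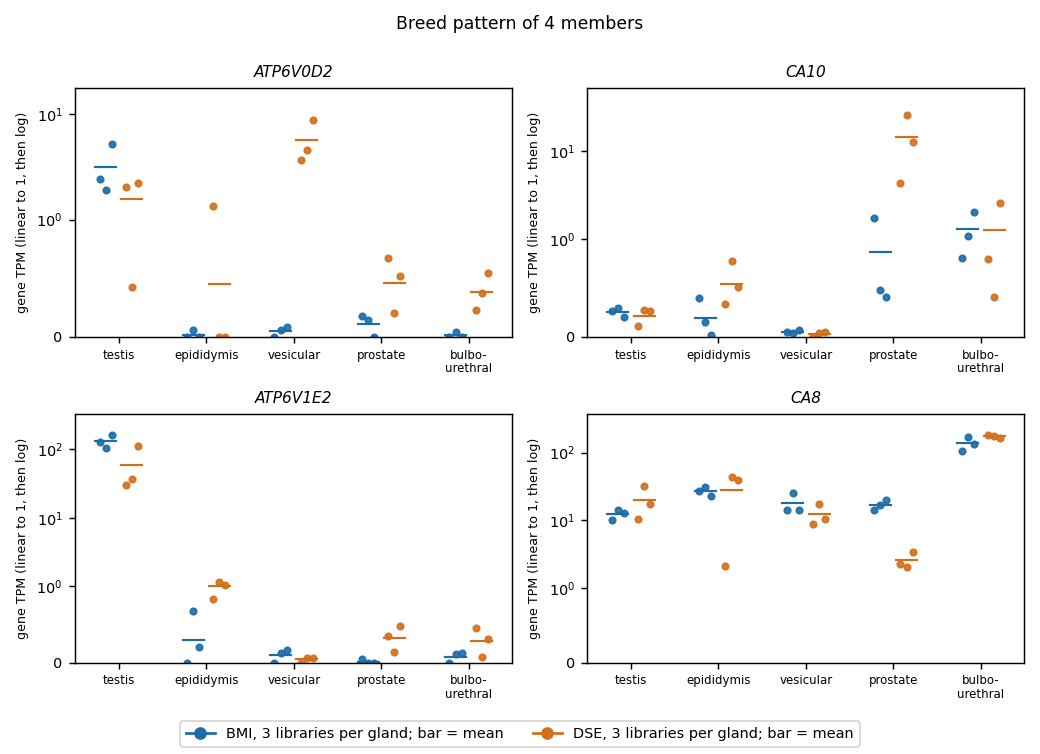
TPM of ATP6V0D2, CA10, ATP6V1E2 and CA8 in the 30 RNA-seq libraries by gland, with BMI and DSE in separate colours, a point for each library and a bar for the mean of each breed, on an axis that is linear to 1 TPM and logarithmic above. ATP6V0D2 is high in DSE vesicular gland (3.70 to 8.78 TPM), CA10 in DSE prostate (4.28 to 25.7 TPM), ATP6V1E2 is highest in BMI testis (102 to 160 TPM), and CA8 in prostate is higher in BMI (14.2 to 19.8 TPM).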

How the data were processed

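RNA-seq (30 libraries) and Iso-seq (10 libraries) were grouped by breed and gland from the labels. The RNA-seq values were deposited as TPM per transcript, which the authors obtained with Salmon 1.9.0 from an annotation merging their Iso-seq transcripts with Ensembl (Sscrofa11.1). TPM keeps no read depth, and read depth was not used here. The Iso-seq values were deposited as raw counts of full-length reads per isoform and library, made by the authors from clustered and collapsed alignments. The labels name rRNA depletion for RNA-seq, which the study describes differently.

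TPM were summed by gene. A gene entered the tests when 3 or more libraries reached 1 TPM. The tests used limma 3.58.1 (R 4.3.3, eBayes with trend) on log2(TPM + 1), with 1 fit of 10 groups for glands and 1 fit per gland for breeds. Shares of subunit forms were tested by exact permutation in Python 3.11.15 with numpy 2.4.6. Transcript shares were tested with limma for transcripts holding a mean share of at least 0.05. Intervals are exact Clopper-Pearson. Scripts were tested on simulated data.

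Named for a gland were up to 8 called members higher and up to 4 lower by size of the log2 difference. For breeds, called members or that with the smallest p were named. For transcripts, the 6 members with the largest called change were named. Others mentioned (such as ATP6V1C1, SLC26A11, CA9 starts and CA8 in prostate) were chosen after their values were seen. The members and lists were chosen with earlier results of these data known. Marker lists (red blood cell, skeletal and smooth muscle, adipocyte, germ cell, macrophage, epithelium, principal cell, clear cell, prostate) were summed per library. Small RNA files were not used. The values of 1 tested member, which stays in the counts, and 1 start sequence are not reported here. Alternatives were a pseudocount of 0.1, Ensembl transcripts alone, size factors, each breed alone, a replicate block, 1 fit of all glands for breeds, and leaving out each library. Further ones were no filter on low values, fusion isoforms added, a library quality component as covariate and, for transcript shares, at least 5 TPM in all libraries. Leaving out the 3 libraries that stood apart was added after seeing the data.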

Additional observations from a re-analysis of the deposited data

Results flagged for a closer look

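The difference between the breeds was not the same in all glands for 3 members, by limma's F test of the interaction of gland and breed. For ATP6V0D2 the adjusted p was 0.00065, with DSE minus BMI log2 differences of −0.71 for testis, 0.38 for epididymis and, in the accessory glands, 2.60 (vesicular), 0.39 (prostate) and 0.44 (bulbourethral). It was 5.5e-05 without the 3 libraries that stood apart and 0.013 with a pseudocount of 0.1.

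For CA10 the adjusted p of the F test was 0.0031, with log2 differences of −0.04, 0.37, −0.04, 2.80 and −0.11 in the same order of glands. It was 0.028 without the 3 libraries that stood apart. BMI prostate library 2, which resembled the vesicular glands, held 0.484 TPM of CA10, and the BMI prostate libraries 1 and 3 held 1.72 and 0.412 TPM.

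For ATP6V1E2 the adjusted p of the F test was 0.040, with log2 differences of −1.36, 0.67, −0.07, 0.38 and 0.24. This call was lost with a pseudocount of 0.1 and without the 3 libraries that stood apart. Without the 3 libraries that stood apart, CA8 (adjusted p = 0.00033) and CA13 (0.0045) were called in the same F test, and with size factors CA8 was (0.020). What these differences come from was not tested.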

How the results depend on the processing

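With Ensembl transcripts alone, 11 members were higher in testis, 6 higher and 2 lower in epididymis, 8 lower in vesicular gland, 3 lower in prostate and 3 lower in bulbourethral gland, 1 was called between the breeds in prostate, and 4 subunit shares were called. The C subunit share could not be computed in that setting, since a library had 0 TPM for the family, and 12 members with a gland difference gave no value. In that setting the log2 difference turned to −0.956 for SLC26A2 and −0.473 for ATP6V0D2 in testis and the share difference of ATP6V0A4 in bulbourethral gland to −0.144 points. With a pseudocount of 0.1, 26 members were lower in vesicular gland and 2 were called between the breeds in prostate. With size factors, 5 members were lower in vesicular gland, 14 were called between epididymis and vesicular gland, 15 between epididymis and prostate, 19 between vesicular and bulbourethral gland, and 2 between the breeds in prostate. With 1 fit of all glands the breed calls were 2 in testis and 1 in each other gland, where all genes called rose from 39, 0, 3, 17 and 5 to 947, 139, 97, 118 and 59 (testis, epididymis, vesicular, prostate and bulbourethral). Subunit shares called numbered 5 in BMI alone, where the ATP6V0D2 share in vesicular gland differed by −0.944 points, and 5 without the 3 libraries that stood apart. Leaving out each library gave 19 to 23 members higher and 12 to 14 lower in testis, 9 to 15 and 3 to 5 in epididymis, 6 to 7 and 15 to 17 in vesicular gland, 6 to 7 and 10 to 14 in prostate, and 8 and 9 to 12 in bulbourethral gland. Breed calls were 0 to 1 in prostate (1 without DSE prostate library 2) and 0 in the other glands. Subunit shares called were 5 to 9 (5 without DSE vesicular gland library 2 or 3), and transcripts called 11 to 14 in testis and 2 to 5 in epididymis (5 without DSE epididymis library 1). The cause was not tested for any of these.

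Deviations of libraries with the same replicate number had r from −0.298 to 0.390 over 60 pairs within a breed (median 0.041, with 21 pairs above 0.1). Over 15 pairs within a gland r ran from −0.555 to 0.374 (median −0.042, with 4 pairs above 0.1). Whether such libraries share an animal was not tested. With the replicate number as a block, the members called were 22 and 12 in testis, 11 and 4 in epididymis, 7 and 16 in vesicular gland, 7 and 13 in prostate, 8 and 10 in bulbourethral gland, and 0 between the breeds in each gland, with 3 members in the interaction, 14 transcripts in testis and 3 in epididymis.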

Other observations

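Some members that were low in most libraries reached higher levels in single ones. SLC26A4 (pendrin, an exchanger of acid-base regulating cells) was at 11.3 TPM in DSE epididymis library 3 and 3.51 TPM in BMI epididymis library 2. CA6, the secreted carbonic anhydrase of saliva, was at 15.1 and 3.21 TPM in the same libraries. FOXI1 was at 4.35 TPM in DSE epididymis library 1.

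The BMI epididymis Iso-seq library held 21 ATP6V0A4 and 17 ATP6V1B1 reads beside 1705 reads of the principal cell gene GPX5 and 2 reads of FOXI1. The 3 BMI epididymis RNA-seq libraries held 1.39, 4.34 and 0.946 TPM of ATP6V0A4.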
